A study of Mus musculus with 4 samples.

Results

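The transcripts of 6 NMDA receptor subunits, Grin1, Grin2a, Grin2b, Grin2c, Grin2d and Grin3a, were followed across cell classes, neuron subtypes and stages of the developing mouse superior colliculus, the midbrain centre that receives retinal axons. The members were the rows of the deposited matrix carrying those gene symbols, and all 6 were found, each in 1 row, among 31053 genes. Single-nucleus RNA sequencing had been performed on C57BL/6J mice just before birth, on embryonic day 19 (E19), and after it, on days 4 (P4), 8 (P8) and 21 (P21) of life, with no other genotype or treatment named. Each stage was 1 library of tissue pooled from an unstated number of animals, so no stage had a replicate, and stage cannot be told apart from library. The protocol text abbreviates the embryonic day in another way than the sample labels, and E19 of the labels was used.

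NMDA receptors are glutamate-gated channels built of an obligatory GluN1 subunit, encoded by Grin1, and of GluN2 or GluN3 subunits that set the kinetics, magnesium block and calcium flow of the channel. In many brain regions young synapses are rich in GluN2B, from Grin2b, and gain GluN2A, from Grin2a, as circuits mature. GluN2C and GluN2D form channels with weak magnesium block, and GluN3A lowers calcium permeability and is linked to immature synapses.

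The matrix held 9724 nuclei, 2249 to 2585 per library, with 19277512 to 31325079 unique molecular identifiers (UMIs) per library. Of these, 7552 were neurons of the authors' annotation, 4093 excitatory in 13 subtypes (EN1 to EN13) and 3459 inhibitory in 12 subtypes (IN1 to IN12). The median UMIs of excitatory nuclei ran from 8051.5 at E19 to 19601 at P21 and those of inhibitory nuclei from 6075 to 14009.5, so depth moved with stage and with class. The 3 vesicular glutamate transporter genes summed to between 179 and 289 counts per 1000000 UMIs (CPM) in excitatory nuclei and between 12.7 and 49.3 CPM in inhibitory nuclei, and the 5 inhibitory markers to between 105 and 147 CPM against 871 to 1128 CPM. The share of nuclei with UMIs of both transmitter types was 26.2% to 36.8% among excitatory and 11.4% to 24.8% among inhibitory nuclei over the 4 libraries. Across libraries, 9 cell barcodes were shared.

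Levels are CPM of the UMIs summed over all nuclei of a class or subtype in a library, with exact 95% Poisson intervals that cover counting error only. Reads from introns entered the counts, so levels of different genes were set side by side per kilobase of gene span, save in the balance of Grin2a to Grin2b, for which raw UMIs were used. On that scale, in excitatory neurons at E19, Grin1 stood at 6.71 CPM per kb, Grin2b at 2.50, Grin3a at 2.35, Grin2d at 1.87, Grin2a at 0.91 and Grin2c at 0.10. At P21 Grin1 stood at 15.7 CPM per kb, Grin2a at 2.05, Grin2d at 1.82, Grin2b at 1.65, Grin3a at 1.44 and Grin2c at 0.21. On that scale Grin2a moved from the fifth place to the place behind Grin1, and Grin2c stayed last in both libraries. Neighbours in either order had Poisson intervals that did not overlap, but these do not cover the choice of scale. As plain CPM the order was another. At E19 Grin2b led with 1151.5 CPM, while Grin2a held 391.1 and Grin1 187.8 CPM. At P21 Grin2a led with 875.9 CPM, while Grin2b held 760.6 and Grin1 440.6 CPM.

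All 6 genes lie on the minus strand of GRCm38 in the GENCODE M21 annotation. Grin1 (ENSMUSG00000026959) spans chr2:25291181-25319187, Grin2a (ENSMUSG00000059003) chr16:9567898-9995560 and Grin2b (ENSMUSG00000030209) chr6:135713233-136173511. Grin2c (ENSMUSG00000020734) spans chr11:115249169-115267243, Grin2d (ENSMUSG00000002771) chr7:45831883-45878378 and Grin3a (ENSMUSG00000039579) chr4:49661611-49845744. Grin2d overlaps Kdelr1 on the opposite strand, a gene with 3629 UMIs in all, Grin1 overlaps Grin1os with 297 UMIs, and Grin2b overlaps Gm14330 with 246 UMIs. No source used here says if strand entered the counting, and whether such pairs hold each other's reads was not tested. On the same strand, Grin3a overlaps Ppp3r2, with 0 UMIs, and Gm12459, while Grin2d overlaps Gm22098. Gm12459 and Gm22098 are not in the matrix.

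Promoter sequences from RefSeq on GRCm38.p6, 250 bases before to 50 bases after the gene start, were matched for 3 of the 6 members. Those of Grin1, the subunit whose level was higher at P21 than at E19 in every neuron subtype, and Grin2c, whose level was highest in astrocytes of the P21 library, are shown 5′ to 3′ on the gene's own strand, with each GC box (GGGCGG or its reverse complement CCGCCC) in capitals.
Grin1, chr2:25319138-25319437, minus strand: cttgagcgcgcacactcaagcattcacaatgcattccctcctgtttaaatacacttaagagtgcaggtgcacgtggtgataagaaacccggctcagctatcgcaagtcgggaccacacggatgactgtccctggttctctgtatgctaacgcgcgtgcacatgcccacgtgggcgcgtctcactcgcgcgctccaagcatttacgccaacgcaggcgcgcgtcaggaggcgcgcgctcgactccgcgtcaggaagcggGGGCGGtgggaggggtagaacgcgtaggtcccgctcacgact
Grin2c, chr11:115267194-115267493, minus strand: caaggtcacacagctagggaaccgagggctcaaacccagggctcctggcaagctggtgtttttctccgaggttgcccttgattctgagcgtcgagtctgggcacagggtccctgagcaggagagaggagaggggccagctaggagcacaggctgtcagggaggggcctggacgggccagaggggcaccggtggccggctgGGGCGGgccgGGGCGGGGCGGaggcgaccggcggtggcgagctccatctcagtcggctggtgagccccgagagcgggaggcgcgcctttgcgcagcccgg
The Grin1 window holds 1 GC box and the Grin2c window 3, of which 2 overlap by 1 base and are counted apart. The window given for Grin2d lies inside the gene span printed above, not at its start, and is not described. Of 32851 promoter windows of the same length, 11714 (35.7%) hold at least 1. These matches describe letters in the windows and no binding was measured.

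Grin1, the subunit that every NMDA receptor needs, stood higher in each later library in both neuron classes. Its level in excitatory neurons was 187.8 CPM at E19, 246.1 at P4, 299.7 at P8, then 440.6 at P21, and in inhibitory neurons 167.4, 208.1, 243.4 and 425.7 CPM. The P21 level was 2.35-fold that of E19 in excitatory neurons (95% counting interval 2.23 to 2.46) and 2.54-fold in inhibitory neurons (2.37 to 2.73). After each nucleus was thinned to 2000 UMIs, a Grin1 UMI was found in 32.7% of excitatory nuclei at E19 and 56.7% at P21, and in 27.1% and 57.0% of inhibitory nuclei. Unthinned shares were 72.6% and 99.6% for excitatory and 60.1% and 98.4% for inhibitory nuclei, and microglia, endothelial and leptomeningeal nuclei together, which served as a background, gave thinned shares of 8.06% at E19 and 6.52% at P21.

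Grin2a, which encodes the GluN2A subunit of mature synapses, was likewise higher at each later stage in both classes. Excitatory neurons held 391.1 CPM at E19, 501.6 at P4, 698.0 at P8 and 875.9 in the P21 library, and inhibitory neurons 319.9, 482.2, 557.6 and 783.2 CPM. The fold between P21 and E19 was 2.24 (2.16 to 2.32) in excitatory and 2.45 (2.33 to 2.57) in inhibitory neurons. The intervals of neighbouring stages did not overlap in either class.

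Grin2b, the GluN2B subunit of young synapses, ran the opposite way. Excitatory neurons held 1151.5 CPM at E19, 961.2 at P4, 910.0 at P8, then 760.6 at P21, and inhibitory neurons 1056.8, 893.6, 874.2 and 668.7 CPM. The P21 level was 0.661-fold that of E19 in excitatory neurons (0.644 to 0.677) and 0.633-fold in inhibitory neurons (0.612 to 0.654). In inhibitory neurons the P4 and P8 intervals overlapped, so the step between those libraries was not detectable at this depth.

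Grin3a, the GluN3A subunit, peaked in the middle libraries. Its level was 431.9 CPM at E19, 510.4 at P4, 482.8 at P8 and 265.0 in the P21 library in excitatory neurons, and 395.4, 546.8, 530.7 and 308.8 CPM in inhibitory neurons. The P21 level was thus the lowest of the 4 in both classes, at 0.613-fold (0.588 to 0.640) and 0.781-fold (0.741 to 0.823) that of E19.

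Grin2d, the GluN2D subunit, stood at a low CPM in both neuron classes. Excitatory neurons held 87.1, 110.4, 99.6 and 84.5 CPM from E19 to P21, and inhibitory neurons 66.3, 89.9, 93.0 and 89.5 CPM. The P21 to E19 fold was 0.970 (0.892 to 1.06) in excitatory neurons, whose log2 ratio changed sign with the scaling, from -0.04 as CPM to 0.07 with median-of-ratios scaling. It was 1.35 (1.20 to 1.52) in inhibitory neurons, and with 1 library per stage the difference between the classes was not tested. With each inhibitory subtype weighted alike, the inhibitory log2 ratio was 1.04 in place of 0.41.

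Grin2c, the GluN2C subunit, was close to absent from neurons, with 1.73, 2.55, 2.20 and 3.83 CPM in excitatory and 0.17, 1.25, 0.81 and 1.68 CPM in inhibitory neurons. Those inhibitory levels rest on 1, 8, 9 and 19 UMIs.

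**Figure D1:**
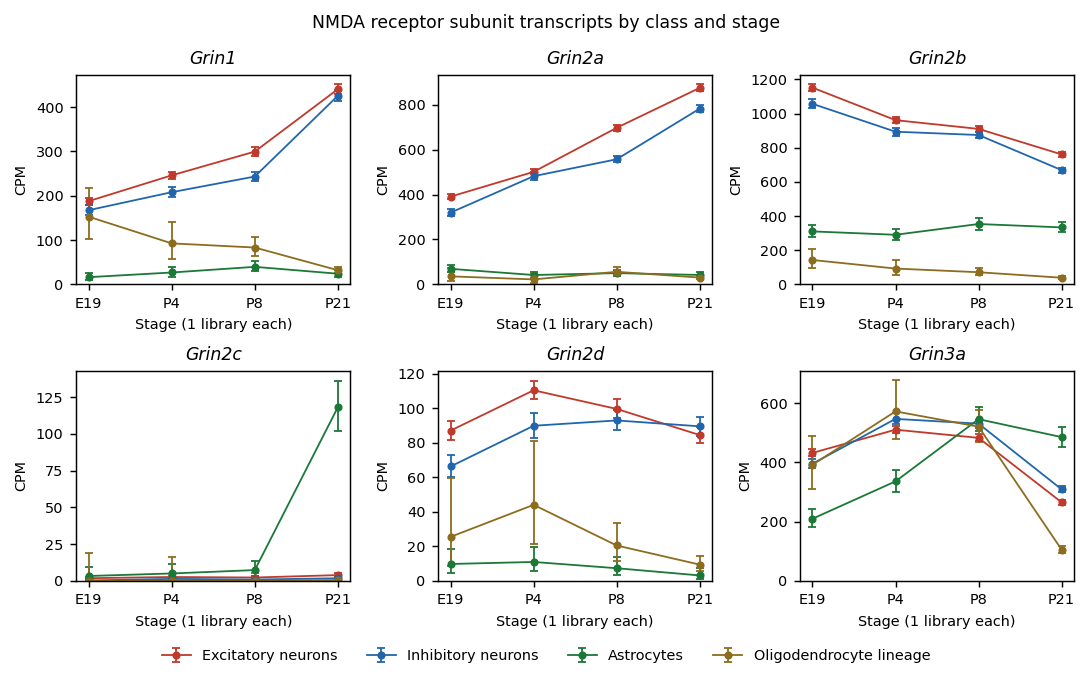
Level of each NMDA receptor subunit transcript (CPM of summed UMIs, vertical axis, starting at 0) at the 4 stages (horizontal axis) in excitatory neurons, inhibitory neurons, astrocytes and the oligodendrocyte lineage. Points are single libraries and bars are 95% Poisson intervals. Grin1 and Grin2a lines of both neuron classes climb from left to right, Grin2b lines descend, and Grin2c stands apart only in astrocytes at P21, at 118.1 CPM.

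On a log2(CPM + 5) scale, where differences of low genes come out too small, Grin1 and Grin2a were more than 1 higher at P21 than at E19 in both neuron classes, and no member was more than 1 lower. Of genes reaching 20 CPM in the higher library, 5.35% of those in excitatory and 5.83% of those in inhibitory neurons were at least 1 higher, and 10.7% and 11.3% were at least 1 lower. With excitatory subtypes weighted alike, the Grin2a log2 ratio was 0.71 in place of 1.15. Median-of-ratios scaling moved all log2 ratios by 0.12 in excitatory and 0.11 in inhibitory neurons. The median of all genes compared was -0.06 and -0.04 as CPM, so Grin1 and Grin2a lay above and Grin2b below the typical gene.

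The stage pattern was next read in each subtype with at least 20 nuclei in a library, 25 subtypes in each of the E19 and P4 libraries and 23 in each later library. Subtypes are clusters of these same nuclei, so differences between them are described and not tested. Grin1 was higher at P21 than at E19 beyond its counting interval in 23 of 23 subtypes, with folds of 1.82 to 3.39 in excitatory and 1.91 to 5.30 in inhibitory subtypes. Grin2a was higher in 22 of 23, EN13 being the exception. Grin2b was lower in 23 of 23 and beyond the interval in 22, with folds of 0.516 to 0.799 in excitatory and 0.338 to 0.941 in inhibitory subtypes.

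Grin2b was also the member most alike across excitatory subtypes. The coefficient of variation across them was 7.79% at E19, 7.27% at P4, 5.36% at P8, then 11.2% at P21, where counting error alone gives 5.02%, 4.49%, 3.31% and 3.60%. Among inhibitory subtypes it was 17.8%, 14.7%, 17.8% and 34.5%. IN10 and IN12 were among the 3 lowest of all subtypes in each of the 4 libraries. IN10 held 644.7 CPM of Grin2b at E19, 594.9 at P4, 547.1 at P8 and 220.9 in the P21 library, the last from 100 UMIs in 26 of 36 nuclei. IN12 held 690.9, 661.2, 596.2 and 233.2 CPM, the last from 56 UMIs in 15 of 22 nuclei. At P21 the next lowest inhibitory subtype, IN11, stood at 504.1 CPM (440.9 to 573.8), outside both of their intervals. By fold over the other inhibitory subtypes, Ebf3 and Ebf1 led IN10 and Gm32884 led IN12. IN12 was also among the 3 lowest for Grin1 in all 4 libraries, at 85.3, 138.9, 172.2 and 279.0 CPM.

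Grin2a spread more. Across excitatory subtypes its coefficient of variation was 93.5% at E19, 39.5% at P4, 32.7% at P8, then 32.8% at P21, against 8.54%, 6.27%, 3.81% and 3.36% from counting error. EN13, led by the transcription factor gene Etv1 over the other excitatory subtypes, set the E19 value. It held 2056.7 CPM at E19 (1839.1 to 2292.9), from 325 UMIs found in 21 of 21 nuclei, and the nucleus with most UMIs gave 41 of them. Its level was 966.8 CPM at P4, 1215.7 at P8 and 1142.7 in the P21 library, so E19 was its highest library and P21 was 0.556-fold E19 (0.485 to 0.640). The subtype next below it at E19, EN5, held 699.9 CPM (606.4 to 803.6). EN5 was in the top 3 in all 4 libraries, with 895.8 CPM at P4, 1065.4 at P8, then 1501.6 at P21, the highest level of that library. EN7, a subtype of the early libraries with 33 nuclei at E19, 191 at P4 and 1 at P8 and at P21, held the least Grin2a of all excitatory subtypes, 199.2 CPM at E19, where its interval overlapped that of EN4 (209.4 CPM), and 184.8 at P4.

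Among inhibitory subtypes IN6 was in the bottom 3 for Grin2a in 3 libraries, with 132.6 CPM at E19, 270.2 at P4 and 347.2 at P8, and it held 613.8 CPM at P21. Its P21 level was 4.63-fold that of E19 (3.34 to 6.58), the widest fold of any subtype. IN7 held 286.0 CPM at E19, 550.6 at P4, 969.4 at P8 and 1202.5 in the P21 library, a fold of 4.20 (3.20 to 5.62), and 64 of 64 nuclei had a UMI at P21. IN12 stood at 1211.7 CPM at P21, but 140 of its 291 UMIs came from 1 nucleus of 22, and without that nucleus it held 703.1 CPM.

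Grin3a had the widest spread across inhibitory subtypes of all members but Grin2c. IN9, led by Il1rapl2, was highest in all 4 libraries, at 1747.0 CPM at E19, 2466.5 at P4, 1722.1 at P8, then 689.4 at P21. A Grin3a UMI was present in 30 of 32, 22 of 22, 72 of 74 and 44 of 45 of its nuclei. IN7, led by Meis1, was lowest of all inhibitory subtypes in all 4 libraries, at 26.0 CPM (8.44 to 60.7) at E19, from 5 UMIs in 4 of 30 nuclei, then 189.1, 190.8 and 131.1 CPM. Its E19 level lay below the 43.9 CPM of the microglia, endothelial and leptomeningeal nuclei of that library, and is read as background. EN13 was the highest excitatory subtype in all 4 libraries, at 917.6, 961.4, 887.9 and 431.3 CPM, and at P8 its interval overlapped that of EN9 (849.3 CPM). EN8 and EN12 were the lowest excitatory subtypes, EN8 at 206.3, 210.3, 152.9 and 179.8 CPM and EN12 at 149.6, 227.6, 184.2 and 105.3 CPM.

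The direction of Grin3a between E19 and P21 was not shared by all subtypes. It was lower at P21 in 10 of 11 excitatory subtypes, 7 of them beyond the interval, and in 7 of 12 inhibitory subtypes, 6 beyond the interval. It was higher beyond the interval in IN3 (135.7 to 290.0 CPM, 2.14-fold, 1.56 to 3.01), IN4 (115.1 to 372.8 CPM, 3.24-fold, 2.34 to 4.60) and IN7, for which no fold is given since its E19 level is read as background. These 3 were the lowest of all subtypes at E19. The coefficient of variation of Grin3a across inhibitory subtypes was 94.5% at E19, 97.3% at P4, 67.9% at P8 and 48.7% in the P21 library.

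Low levels limit what can be said of Grin2d by subtype. The microglia, endothelial and leptomeningeal nuclei held 43.9 CPM of it at E19 (25.6 to 70.3), 35.3 at P4, 27.9 at P8, then 19.1 at P21. At E19, 7 of 12 inhibitory and 2 of 13 excitatory subtypes were at or below that background, and at P21 0 subtypes were. Astrocytes of the same libraries held less, at 9.72, 10.9, 7.26 and 3.08 CPM, so a subtype below that background is not shown to lack Grin2d. Grin2d was higher at P21 than at E19 in 12 of 12 inhibitory subtypes, 8 of them beyond the interval. Of these 8, 7 are the subtypes at or below that background at E19, and the other, IN10, stood at 44.3 CPM. Among 11 excitatory subtypes 6 were higher, 0 beyond the interval, 5 were lower, 2 of those beyond the interval. A difference between the classes was not tested. IN3, led by Gabrr2, was in the bottom 3 in all 4 libraries, at 19.9 CPM at E19 from 6 UMIs, 25.2 at P4, 64.5 at P8, then 66.2 at P21. Its E19 and P4 levels lay below the background given above. IN1, with 266 nuclei at E19, held 93.0 and 96.8 CPM, a fold of 1.04 (0.837 to 1.29). Across inhibitory subtypes the coefficient of variation of Grin2d at P21 was 11.8%, where counting error alone gave 13.0%.

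Among neuron subtypes with at least 20 nuclei at P21, Grin2c was highest in EN8 and IN2. Of the 56 excitatory UMIs 22 were in EN8, found in 14 of 46 nuclei, at 16.4 CPM (10.3 to 24.8), and EN8 held 1.89 CPM at E19, 5.53 at P4 and 6.15 at P8. The 5 astrocyte markers summed to 55.2 CPM in EN8 at P21, within the 33.5 CPM of EN12 and the 87.8 CPM of EN2, and to 5960 CPM in astrocytes. IN2 held 17 of the 19 inhibitory UMIs at P21, in 10 of 87 nuclei, at 9.65 CPM (5.62 to 15.5). Of these 17, 6 came from 1 nucleus, and without it IN2 held 6.41 CPM. A further 8 UMIs in EN11 came from 1 nucleus with 244143 UMIs in all.

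**Figure D2:**
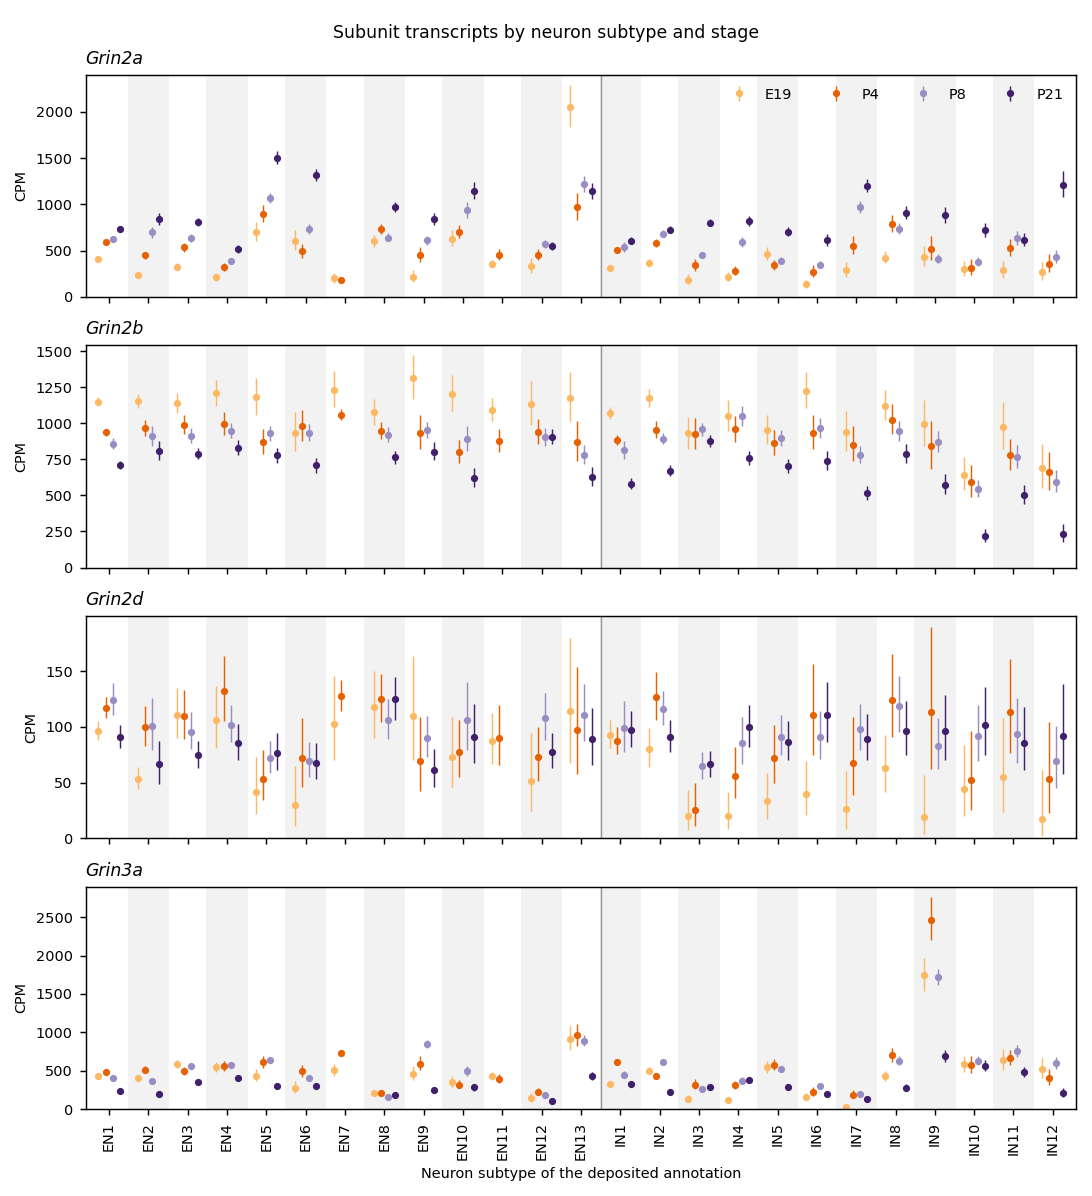
Level of Grin2a, Grin2b, Grin2d and Grin3a (CPM, vertical axes, starting at 0) in each neuron subtype (horizontal axis, excitatory left and inhibitory right of the line) with at least 20 nuclei, coloured by stage. Bars are 95% Poisson intervals. EN13 at E19 stands alone for Grin2a at 2056.7 CPM, IN10 and IN12 at P21 lie below the rest for Grin2b, and IN9 is highest for Grin3a in all 4 libraries.

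The order of subtypes was compared between libraries as a description across 23 to 25 subtypes, which share a library at each stage. Spearman's rho for Grin3a was 0.75 between E19 and P4, 0.84 between P4 and P8 and 0.63 between P8 and P21, and for Grin2a 0.78, 0.82 and 0.66. For Grin2b it was 0.43, 0.68 and 0.79. Between E19 and P21 it was 0.61 for Grin3a, 0.47 for Grin2a, 0.44 for Grin2b, -0.05 for Grin2d and -0.09 for Grin1. Between the outer libraries the order was thus near unrelated by rho for Grin1 and Grin2d, with Pearson's r of log2(CPM + 5) at 0.24 and 0.04. Counting error blurs both orders. For Grin1 at E19 the coefficient of variation was 16.0% in excitatory and 24.1% in inhibitory subtypes, where counting alone gives 12.6% and 15.7%. For Grin2d in inhibitory subtypes at P21 it was 11.8% against 13.0%. A low rho therefore cannot tell a changed order from counting error here.

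The balance of Grin2a to Grin2b was taken as the log2 ratio of their UMIs, in which a change across cell types does not depend on gene length. A value of 0 means equal UMIs, and per kilobase of span every value would be 0.11 higher. For all excitatory nuclei it was -1.56, -0.94, -0.38 and 0.20 from E19 to P21, and for all inhibitory nuclei -1.72, -0.89, -0.65 and 0.23. The excitatory minus inhibitory difference averaged 0.09 ± 0.15 (SD, n = 4 libraries), with excitatory higher in 2 of 4. An exact two-sided sign-flip test over the 4 libraries gave p = 0.50, where the smallest p it allows is 0.13.

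The balance was higher at P21 than at E19 in 23 of 23 subtypes, and in 22 the intervals were apart. With each nucleus weighted alike it was higher in 22 of 23, EN13 standing at 0.86 and 0.83. By step it was higher at the later stage in 22 of 25 subtypes from E19 to P4, in 21 of 23 from P4 to P8 and in 22 of 23 from P8 to P21. EN13 was the subtype without a separated change. Its balance was 0.81 (0.54 to 1.07) at E19, the only value above 0 in that library, then 0.15, 0.63 and 0.86. At P21, 9 of 11 excitatory and 9 of 12 inhibitory subtypes were above 0, with intervals wholly above 0 in 5 and 6 of them. EN4 (-0.69, -0.84 to -0.55) and EN12 (-0.72, -0.86 to -0.58) were below 0 at P21 with intervals that excluded 0, as were IN3 (-0.13) and IN6 (-0.27). Per kilobase, the intervals of EN4 and EN12 lay below 0 and those of 0 inhibitory subtypes did. IN6 also had the lowest balance of all at E19, -3.21 (-3.72 to -2.74).

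At the other end stood IN12 and IN10 at P21, with balances of 2.38 (1.96 to 2.82) and 1.70 (1.38 to 2.04). With each nucleus weighted alike these were 1.82 and 1.73. At P8 the same subtypes had balances of -0.47 and -0.54, close to the inhibitory value. Their P21 values coincide with the low Grin2b given above, at 233.2 and 220.9 CPM, while Grin2a in IN10, at 720.2 CPM, was below the inhibitory 783.2 CPM. In IN12, Grin2a was 1211.7 CPM, and 703.1 CPM without the nucleus of most Grin2a UMIs. In IN7 the balance was 0.31 at P8, the only inhibitory value above 0 in that library, and 1.22 at P21. EN7 stayed at -2.63 and -2.52 in the 2 libraries that held it.

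**Figure D3:**
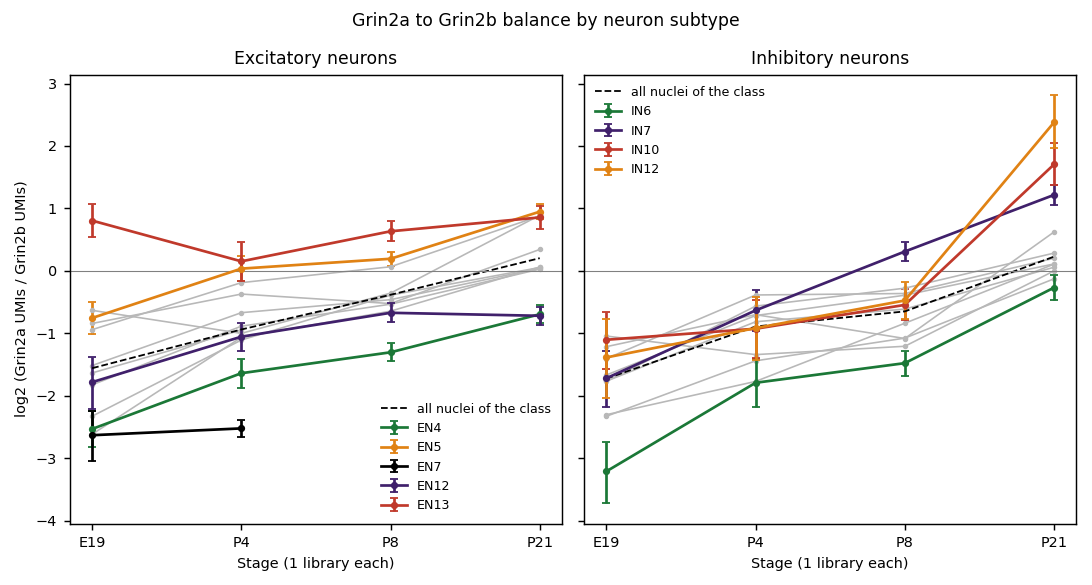
Log2 ratio of Grin2a to Grin2b UMIs (vertical axis) at the 4 stages (horizontal axis) in excitatory (left) and inhibitory (right) subtypes with at least 20 nuclei. Coloured lines with 95% exact binomial intervals are EN4, EN5, EN7, EN12, EN13, IN6, IN7, IN10 and IN12. Grey lines are the other subtypes, and the dashed line is all nuclei of the class. EN13 starts at 0.81 while every other subtype starts below 0, and IN10 and IN12 end highest, at 1.70 and 2.38.

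The contrast between excitatory and inhibitory neurons has 4 libraries on each side and was tested on summed UMIs with edgeR's quasi-likelihood test, with the library as a block and Benjamini-Hochberg adjustment over 14799 genes. The libraries are 4 ages, so the spread includes any change of the contrast with age. Higher in excitatory neurons were Grin1 (log2 ratio 0.24, SE 0.06, adjusted p = 0.0241), Grin2a (0.25, SE 0.06, adjusted p = 0.0234) and Grin2c (1.43, SE 0.28, adjusted p = 0.0118). Each was higher in 4 of 4 libraries, though not beyond its counting interval in all of them. Of all genes 9.48% were higher and 7.72% lower in excitatory neurons, 17.2% in either direction, beside which the 3 of 6 members are to be read. Grin2b (0.16, adjusted p = 0.0742), Grin2d (0.21, adjusted p = 0.0934) and Grin3a (-0.04, adjusted p = 0.753) did not pass.

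The excitatory to inhibitory fold was small for all members but Grin2c. For Grin1 it was 1.12 at E19, 1.18 at P4, 1.23 at P8 and 1.04 (0.997 to 1.07) in the P21 library. For Grin2a it was 1.22, 1.04 (0.997 to 1.09), 1.25 and 1.12, and for Grin2c 10.3 (1.65 to 429), 2.04 (0.936 to 5.05), 2.71 and 2.28. The intervals of Grin1 at P21 and of Grin2a and Grin2c at P4 thus included equal levels. For Grin2d it went from 1.31 and 1.23 through 1.07 to 0.944, and for Grin3a from 1.09 through 0.933 and 0.910 to 0.858. The Grin1 call was lost without the E19, P4 or P8 library (adjusted p = 0.0633, 0.0980 and 0.120 by edgeR), the Grin2a call without E19 or P8 (0.0889 and 0.115), and the Grin2c call without P8 (0.0609). Without the library as a block none of the 3 passed, with adjusted p of 0.999, 0.999 and 0.482.

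Astrocytes carried a different set of subunits. Against all neurons of the same libraries, edgeR placed Grin1 (log2 ratio -3.59, SE 0.23, adjusted p = 2.43e-05), Grin2a (-3.70, SE 0.29, adjusted p = 5.44e-05), Grin2b (-1.70, SE 0.20, adjusted p = 0.000454) and Grin2d (-3.86, SE 0.24, adjusted p = 2.09e-05) lower in astrocytes. Grin2c was higher in astrocytes (2.96, SE 0.83, adjusted p = 0.0234). Its astrocyte to neuron fold was 2.70 (0.515 to 9.04) at E19 and 2.29 (0.710 to 5.74) at P4, intervals that include equal levels. It was 4.64 (1.97 to 9.75) at P8 and 40.8 (31.1 to 54.0) at P21. Of 14787 genes 22.2% were higher and 22.5% lower in astrocytes, 44.7% in either direction, so 5 of 6 members passing is to be read beside a wide contrast. Without the P8 library the adjusted p of Grin2c was 0.0675, and without P21 its log2 ratio was 1.41 (adjusted p = 0.0351).

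Grin2c in astrocytes was 3.24 CPM at E19, 4.95 at P4, 7.26 at P8 and 118.1 CPM at P21, from 3, 5, 9 and 192 UMIs. The P21 level was 36.5-fold that of E19, with a counting interval of 12.3 to 178. All 192 UMIs at P21 were in protoplasmic astrocytes, at 137.2 CPM and in 118 of 232 nuclei, while the 55 fibrous astrocytes held 0 UMIs, which at a limit of 3 counts allows up to 13.2 CPM. Thinned to 2000 UMIs, 18.1% of astrocytes had a Grin2c UMI at P21, against 0.88% of excitatory and 0.14% of inhibitory nuclei, and unthinned 41.1%, 4.84% and 1.62%. The microglia, endothelial and leptomeningeal nuclei held 0 Grin2c UMIs in all 4 libraries.

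Grin2b and Grin3a stood above background in astrocytes in all 4 libraries. Grin2b stood at 309.9, 290.2, 353.2 and 333.3 CPM from E19 to P21, against 43.9 to 76.8 CPM in the microglia, endothelial and leptomeningeal nuclei. Its P21 to E19 fold was 1.08 (0.931 to 1.25), and its log2 ratio of 0.10 became 0.40 with median-of-ratios scaling and -0.43 with the astrocyte subtypes weighted alike. Grin2a, at 41.6 to 69.1 CPM in astrocytes, had intervals that overlapped those of the background nuclei (27.7 to 69.7 CPM) in all 4 libraries. Grin1 did so in 3 libraries, but at P4 it was 26.7 CPM (17.6 to 38.9) in astrocytes against 5.04 CPM (1.37 to 12.9) in the background nuclei, the latter from 4 UMIs. The 3 neuron markers summed to between 307 and 364 CPM in astrocytes, and their part in the astrocyte values was not tested.

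Grin3a did not pass edgeR's test between astrocytes and neurons over the 4 libraries (log2 ratio -0.38, SE 0.32, adjusted p = 0.365), and without P21 it was lower in astrocytes (-0.75, adjusted p = 0.0188). Its astrocyte level was 209.5 CPM at E19, 335.7 at P4, 545.9 at P8, then 485.3 at P21, and the astrocyte to neuron fold went from 0.499 through 0.644 and 1.08 to 1.71. Fibrous astrocytes held 99.7 and 124.1 CPM in the early libraries and 740.1 and 665.9 CPM at P8 and P21, and protoplasmic astrocytes 237.9, 396.6, 503.9 and 456.0 CPM. Past a log2 ratio of 1 between E19 and P21 in astrocytes were Grin2c (3.90) and Grin3a (1.19), among 8.6% of genes at least 1 higher and 18.2% at least 1 lower.

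In the oligodendrocyte lineage, edgeR placed Grin1 (-1.91, SE 0.47, adjusted p = 0.0189), Grin2a (-4.16, SE 0.32, adjusted p = 5.29e-05), Grin2b (-3.68, SE 0.28, adjusted p = 5.46e-05) and Grin2d (-2.30, SE 0.31, adjusted p = 0.000975) below neurons. Of 14347 genes 9.14% were higher and 13.1% lower in the lineage, 22.2% in either direction. Grin2c (-3.08, adjusted p = 0.0547) and Grin3a (-0.45, adjusted p = 0.282) did not pass. Without P4 or P8 the adjusted p of Grin1 was 0.0776 or 0.0817. Its lineage to neuron fold was 0.844 (0.569 to 1.21) at E19, an interval that includes equal levels, then 0.394, 0.303 and 0.0734. Precursors held 152.1 CPM of Grin1 at E19 and 66.8 CPM at P21, where myelinating oligodendrocytes held 28.7 CPM. In the P21 library Grin3a separated the stages of the lineage. Oligodendrocyte precursors held 404.0, 665.7, 649.8 and 671.2 CPM from E19 to P21, and 58 of 64 precursor nuclei had a UMI at P21. At P21 committed oligodendrocytes held 57.6 CPM (38.3 to 83.3) and 187 myelinating oligodendrocytes 11.5 CPM (6.8 to 18.2). The lineage total was 105.0 CPM at P21, against 391.9, 572.2 and 520.5 CPM before. Its makeup differed too, with 1 myelinating nucleus annotated before P21 and 187 at P21. Levels of committed oligodendrocytes before P21 are not given here, and the part of makeup in the lower total was not tested. Dividing cells held 400.7, 523.3, 703.3 and 665.7 CPM of Grin3a.

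**Figure D4:**
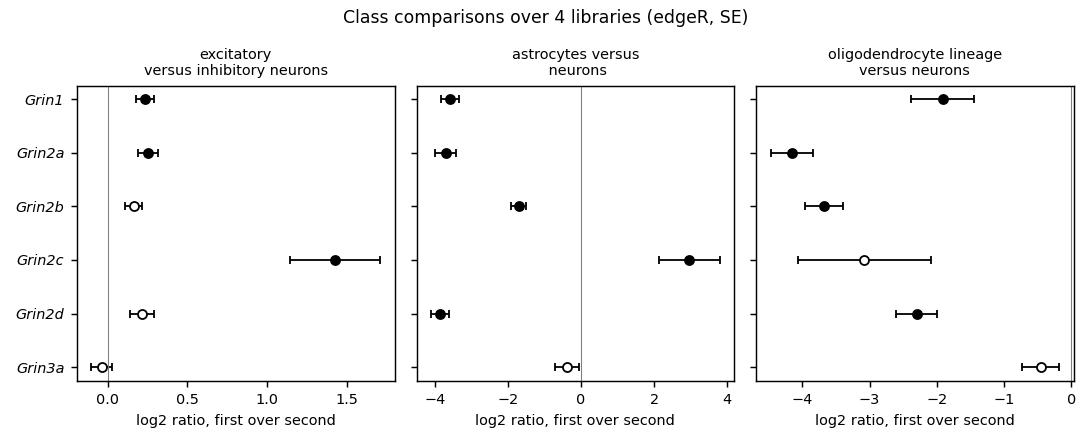
Log2 ratios from edgeR (horizontal axes, the class named first over the other) for the 6 members in 3 class comparisons over 4 libraries. Bars are standard errors and filled points have an adjusted p under 0.05. In the comparison of neuron classes all members but Grin3a lie right of 0, with Grin1, Grin2a and Grin2c filled. Grin2c is the only member right of 0 against neurons in astrocytes, at 2.96.

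Of 29 genes that act with NMDA receptors, listed from background knowledge, 22 had at least 20 CPM in each neuron class. In excitatory neurons 2 were at least 1 higher at P21 on the log2 scale (5.35% of all genes) and 2 at least 1 lower (10.7%), with a median of 0.09 beside -0.06 for all genes. In inhibitory neurons 3 were higher (5.83% of all genes) and 2 lower (11.3%), with a median of 0.24 beside -0.04. Rasgrf1, a calcium-dependent Ras activator that binds GluN2B, differed most, at 50.7 and 506.8 CPM in excitatory neurons (log2 ratio 3.20) and 29.7 and 519.5 CPM in inhibitory neurons (3.92). Camk2a, the kinase subunit that docks on GluN2B, went from 104.1 to 317.6 CPM (1.56) and from 88.9 to 291.2 CPM (1.66).

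Next in rank were the scaffold gene Dlg2 in excitatory neurons (0.97) and Kif17, a motor that carries GluN2B along dendrites, in inhibitory neurons (1.30). The lowest were Ephb2, a receptor that clusters NMDA receptors (-1.09 in excitatory and -1.17 in inhibitory neurons), and Lin7c, an adaptor for that motor (-1.02 and -1.28). They were followed by Apba1, another part of that adaptor complex, in excitatory neurons (-0.95) and the Src-family kinase gene Fyn in inhibitory neurons (-0.72). Dlg4, which encodes the scaffold PSD-95, stood at 0.06 and 0.08. Grin3b, the remaining NMDA receptor subunit gene, did not exceed 2.62 CPM in either neuron class.

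Over the 96 combinations of neuron subtype and stage with at least 20 nuclei, Pearson's r of log2(CPM + 5) named the genes most like each member among 7088 with a mean of 20 CPM or more. The points share 4 libraries and their depth, and no p is given. Pacsin1 (0.88) and C230004F18Rik (0.88) were most like Grin1, AI314180 (0.69) and Scn1a (0.68) most like Grin2a, and Scml4 (0.78) and Gap43 (0.74) most like Grin2b. Palm2 (0.80) and Slc6a7 (0.80) were most like Grin2d, Tsta3 (0.52) and Adcy5 (0.52) most like Grin3a, and Col16a1 (0.53) and Gpc5 (0.46) most like Grin2c. No Grin2c UMI was found in 8 of 13 excitatory and 11 of 12 inhibitory subtypes at E19, nor in 3 of 11 and 9 of 12 at P21. Its likenesses thus rest on few UMIs. With the log2 median UMIs of the same nuclei, r was 0.77 for Grin1, 0.56 for Grin2a and Grin2d, 0.44 for Grin2c, -0.28 for Grin2b and -0.17 for Grin3a, and the part of depth in these likenesses was not tested. Within single libraries, from E19 to P21, r with depth was 0.81, 0.63, 0.60 and -0.23 for Grin2d. For Grin1 it was 0.37, 0.44, 0.51 and -0.11, and for Grin2c 0.63, 0.34, 0.32 and 0.66. The part of depth in the order of subtypes by Grin2c, EN8 and IN2 at P21 included, was not tested. Between members, r was 0.66 for Grin1 with Grin2a and -0.39 for Grin2a with Grin2b over all points. Within single libraries these were 0.04 to 0.38 and -0.17 to 0.15.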

How the data were processed

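The values deposited by the authors were raw UMI counts per gene and nucleus, made with Cell Ranger 3.0.2 on a pre-mRNA reference of mm10, per the labels. Stage, class and subtype came from the authors' table of nuclei, whose UMI totals were identical with the matrix in all 9724 nuclei. The filters on nuclei, the treatment of doublets and the naming of subtypes are not given in the sources used here, and no further filter or doublet caller was applied. Counts were summed per library and class or subtype and scaled to CPM. Intervals were exact Poisson, Clopper-Pearson or conditional binomial at 95%. Folds and log2 ratios between stages have no replicate and no p. Class contrasts used edgeR 4.0.16 (TMM, filterByExpr, library as a block), with DESeq2 1.42.0 as an alternative, after a test on simulated data. Subtypes needed 20 nuclei. The named subtypes were the 3 highest and 3 lowest per library, and the named partner genes the 3 largest differences in each direction. The choice of the genes, lists and subtypes was made with earlier results of these data known. Likeness, thinning to 2000 UMIs and the alternatives are described where used.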

Additional observations from a re-analysis of the deposited data

Results flagged for a closer look

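Grin2a in astrocytes at P21 was 0.605-fold its E19 level, while excitatory neurons stood at 2.24-fold and inhibitory neurons at 2.45-fold. Grin3a in astrocytes at P21 was 2.32-fold its E19 level, while excitatory neurons stood at 0.613-fold and inhibitory neurons at 0.781-fold. In both cases the single pair of libraries moved in opposite directions in the classes, and the difference was not tested. The Grin2a values in astrocytes rest on 64 and 68 UMIs and were of the size found in microglia, endothelial and leptomeningeal nuclei, at 69.7 and 39.9 CPM.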

How the results depend on the processing

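No result changed its sign past a threshold under any alternative run. The number of genes that differed between excitatory and inhibitory neurons was 2545 with edgeR, 1654 with DESeq2, 183 without the library as a block and 1232 to 2328 with 1 library left out, and that for the oligodendrocyte lineage, 3188, was 1607 to 4231 with 1 library left out. With at least 50 nuclei per subtype, 9 of 9 subtypes in place of 23 of 23 had higher Grin1 and a higher Grin2a to Grin2b balance at P21. Grin1 was seen in 82.1% of excitatory nuclei at P21 when thinned to 4000 UMIs, against 56.7% at 2000. Of the members' log2 ratios between classes, Grin2b passed as higher in excitatory neurons with subtypes weighted alike (adjusted p = 0.0103 by edgeR), and Grin2d passed with no filter (0.0333) and without P21 (0.0235). Of 120 stage ratios under alternatives, 94 stayed within their counting interval and 26 moved. Leaving out the nucleus of most UMIs, chosen after seeing the data, gave 2571 genes. Both classes come from the same libraries, and the library block pairs them; the labels give no replicate numbers for any further pairing. Depth limits Grin2c in neurons and subtypes with few nuclei, and all intervals cover counting error only.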
